A study of Mus musculus with 6 samples.

Results

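The genes described here encode the enzymes and carriers that turn glucose and fatty acids into energy in regulatory T cells (Treg), which are CD4+ cells with the transcription factor Foxp3 that hold back immune responses. They comprise 3 pathways. Glycolysis covers 17 listed genes from glucose uptake to lactate export, the tricarboxylic acid (TCA) cycle 13 with pyruvate dehydrogenase, and mitochondrial fatty acid oxidation 15. Each listed gene was represented by the probe set with the highest mean over the 6 arrays that the platform annotation assigns to that symbol alone. This gave 43 of 45 listed genes, out of 12393 genes on the array. The expression of Gpi1 and Eno1 was not analysed here, since no probe set carried their symbols. Treg separated on magnets as CD4+CD25+ cells came in 3 samples of the genotype HDAC9-/- and 3 of wild type. CD25 is a chain of the receptor for interleukin-2. The labels give the strain C57BL/6 for both genotypes, and HDAC9 is a class IIa histone deacetylase. The sources used here give no age or sex, do not say which exons were deleted and do not say whether each sample came from its own mouse, so p-values reflect how far these samples vary among themselves, which may be technical. The comparison asks how loss of HDAC9 alters the Treg transcriptome. Its number of arrays limits the precision.

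Glycolysis splits glucose into pyruvate in the cytosol and yields lactate when pyruvate is not taken into mitochondria. The TCA cycle burns acetyl groups from pyruvate and from fatty acids, and fatty acid oxidation shortens acyl chains in repeated rounds of dehydrogenation, hydration, dehydrogenation and cleavage. Effector T cells raise glucose uptake and glycolysis on activation, while Treg are known for a larger reliance on fatty acid oxidation and respiration, although proliferating Treg also use glycolysis.

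No gene of the 3 pathways passed the test, and the differences were small. Of the 43 genes, 33 had a positive difference (HDAC9-/- minus wild type, log2 scale) and 10 a negative one, with a median of 0.05 and a range of -0.27 to 0.23. The difference was positive for 76.7% of them, against 54% of all genes and 61.8% of the brighter genes defined next. The median was 0.01 over all genes and 0.04 over the 6921 genes whose probe set reached the median level of all probe sets (5.76), as 42 of the 43 did. Of the 42 genes tested, 0 had an adjusted p below 0.05 (limma, Benjamini-Hochberg over 22626 probe sets, of which 0.0133% passed), and the lowest adjusted p was 0.457. At an unadjusted p below 0.05, 5 of 42 were higher (11.9%) and 1 was lower (2.38%). Over all genes these shares were 6.12% and 2.62%, and over the brighter genes 8.15% and 2.46%. The 95% confidence interval of the difference lay between -0.5 and 0.5 for 41 of the 42 genes. The exception was Cpt1a, and a log2 difference of 0.23, the largest positive one, corresponds to 1.17-fold.

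The 3 HDAC9-/- values did not overlap with the 3 wild type values for 14 genes. Of these, 12 were higher in HDAC9-/- Treg (27.9% of the 43 genes), namely Aldoa, Tpi1, Pgk1, Ldha, Idh2, Idh3g, Fh1, Hadh, Acaa2, Echs1, Etfa and Etfb. The remaining pair, Slc2a3 and Ogdh, was lower (4.65%). Over all genes 12.5% were higher without overlap and 5.7% lower. Over the genes at or above the median level the shares were 18.4% and 6.1%. When the array medians were aligned, 6 genes were higher (14.0%) and 2 lower, against 12.6% and 7.38% of those brighter genes. With quantile normalization again, 11 were higher (25.6%) and 2 lower (4.65%), against 16.0% and 8.06% of the brighter genes. The count of higher genes thus depended on the scaling. The split of the non-overlapping genes was 85.7% higher as deposited and 75.0% higher with aligned medians. Over the brighter genes the non-overlapping ones also leaned higher, 1271 against 422 as deposited and 12.6% against 7.38% with aligned medians. The lean was thus not particular to these pathways. Aldoa, Ldha, Idh3g, Fh1 and Hadh were higher without overlap under each of these scalings, as Slc2a3 and Ogdh were lower. Wild type replicate 3 had the lowest array median (5.69, against 5.77 to 5.81 for the other arrays) and the lowest mean correlation with the others (0.991). Without it, 15 genes were higher without overlap (34.9%) and 2 lower, against 22.7% and 14.6% of the brighter genes.

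**Figure D1:**
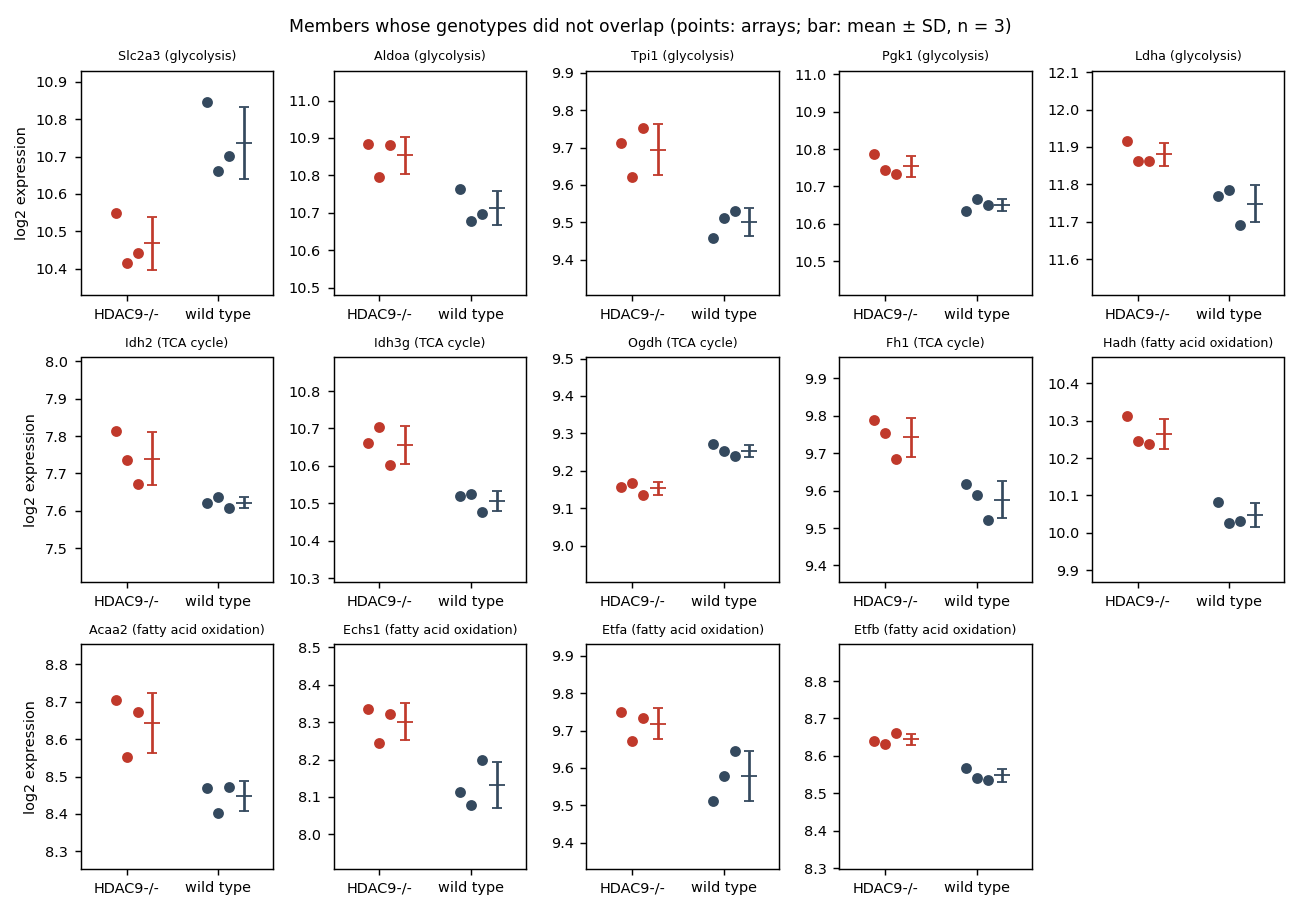
Log2 expression of the 14 genes whose genotypes did not overlap, with 1 point per array, HDAC9-/- in red and wild type in dark blue, and a bar for mean ± SD (n = 3 each). Every panel spans the same range of log2 units; Slc2a3 and Ogdh are lower in HDAC9-/- Treg and the other 12 genes higher.

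**Figure D2:**
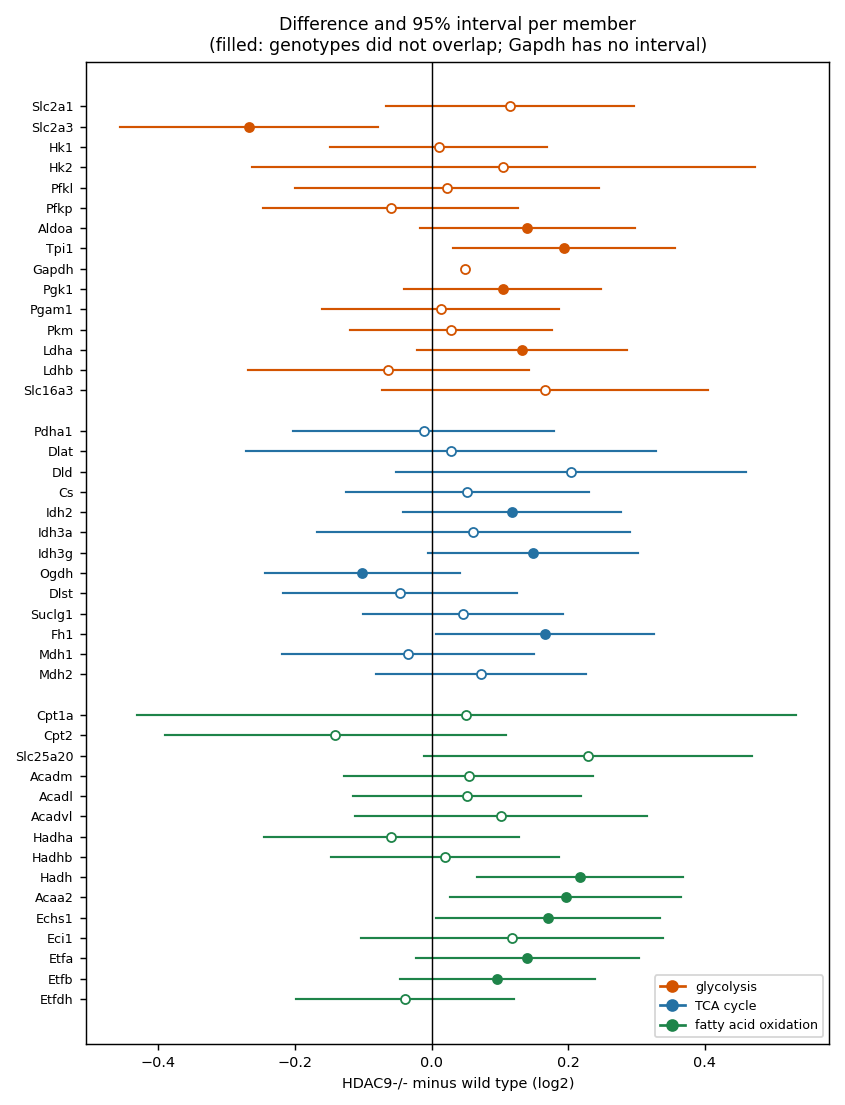
Difference between HDAC9-/- and wild type (log2) for each of the 43 genes, with its 95% confidence interval from limma for the 42 tested, grouped by pathway. Filled points mark the 14 genes without overlap; the values run from -0.27 for Slc2a3 to 0.23 for Slc25a20.

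In glycolysis Aldoa, Tpi1, Pgk1 and Ldha were higher in HDAC9-/- Treg without overlap, by 0.10 to 0.19, and the transporter Slc2a3 was lower. Of 15 genes measured, 12 had a positive difference, and 4 (26.7%) were higher without overlap, against 18.4% of the brighter genes. Lower without overlap was 1 (6.67%), near the 6.1% of the brighter genes. The median was 0.05, and it was 0.02 with aligned array medians, 0.02 without HDAC9-/- replicate 1 and 0.10 without wild type replicate 1. None of the 14 tested passed (limma, adjusted p of 0.466 to 0.967). Gapdh was described without a test because the only probe sets assigned to that symbol alone are controls of the array.

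Slc2a3 encodes GLUT3, a glucose transporter of high affinity. Its brightest probe set read 10.55, 10.41 and 10.44 in HDAC9-/- replicates 1 to 3, against 10.84, 10.66 and 10.70 in wild type replicates 1 to 3. The difference was -0.27 (limma, standard error 0.08, adjusted p = 0.466), the largest negative one of the 43 genes. The second brightest probe set also did not overlap, at 8.85, 8.74 and 8.73 in HDAC9-/- against 9.02, 8.88 and 9.02 in wild type samples. Both carry name endings (s_at and x_at) that Affymetrix uses for probes that may also match related transcripts, and the 2 dimmer probe sets differed by -0.19 and -0.004 with overlap. Slc2a1, which encodes GLUT1, the glucose transporter that T cells raise on activation, had the opposite sign. It read 8.61, 8.66 and 8.74 in HDAC9-/- and 8.55, 8.47 and 8.65 in wild type samples, overlapping, with a difference of 0.11 (standard error 0.08). One of its 2 other probe sets differed by 0.25 without overlap (limma, unadjusted p = 0.0268, adjusted p = 0.541). No test of the difference between both transporters was made.

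The kinases that trap glucose and commit it to glycolysis differed little. Hk1, the hexokinase of most resting cells, averaged 9.54 ± 0.02 in HDAC9-/- and 9.53 ± 0.07 in wild type Treg (SD, n = 3), a difference of 0.01. Hk2, the hexokinase induced by growth signals and hypoxia, read 7.05, 6.89 and 6.72 in HDAC9-/- against 6.84, 7.02 and 6.48 in wild type samples. Its wide spread left an interval of -0.26 to 0.47. The phosphofructokinases Pfkl and Pfkp, which catalyse the committed step, differed by 0.02 and -0.06 with overlapping arrays. The signs of Hk1 and Pfkl turned negative with aligned array medians (-0.02 and -0.003), so neither has a settled direction.

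In the middle of the pathway, Aldoa cleaves fructose bisphosphate and Tpi1 interconverts its products. Tpi1, triosephosphate isomerase, read 9.71, 9.62 and 9.75 in HDAC9-/- against 9.46, 9.51 and 9.53 in wild type samples. Its difference of 0.19 (standard error 0.07, adjusted p = 0.540) was the largest positive one in glycolysis, and all 3 of its probe sets were higher without overlap, by 0.19 to 0.27. With aligned array medians the Tpi1 groups overlapped. Aldoa, the main aldolase of muscle and lymphocytes, read 10.88, 10.80 and 10.88 in HDAC9-/- against 10.76, 10.68 and 10.70 in wild type samples. All 4 Aldoa probe sets were higher without overlap, by 0.12 to 0.16, and all carry the x_at ending. Pgk1, phosphoglycerate kinase, which makes ATP, read 10.79, 10.74 and 10.73 in HDAC9-/- against 10.63, 10.67 and 10.65 in wild type samples. The remaining probe sets of Pgk1 differed by 0.08 and 0.12 and overlapped.

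Gapdh, which oxidises glyceraldehyde 3-phosphate, was measured by the 3 control probe sets that sample its 3-prime end, middle and 5-prime end. The brightest, at the 3-prime end, read 12.46, 12.40 and 12.45 in HDAC9-/- against 12.37, 12.42 and 12.38 in wild type samples, overlapping. The 3 differences were 0.05, 0.005 and -0.09 in that order, so the sign depended on the end of the transcript. The 3-prime signal exceeded the 5-prime signal by 0.276, 0.168 and 0.155 in HDAC9-/- samples and by 0.113, 0.026 and 0.050 in wild type samples. This measure of RNA integrity and labelling did not overlap between the genotypes, and its part in the small differences of the other genes was not tested. The same measure for actin overlapped, at 0.423 to 0.599 in HDAC9-/- and 0.334 to 0.460 in wild type samples.

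At the end of the pathway, Pkm (pyruvate kinase) averaged 11.00 ± 0.04 in HDAC9-/- and 10.97 ± 0.02 in wild type Treg (SD, n = 3), a difference of 0.03 with overlap. Ldha, the lactate dehydrogenase subunit that favours making lactate, read 11.92, 11.86 and 11.86 in HDAC9-/- against 11.77, 11.78 and 11.69 in wild type samples. The Ldha groups did not overlap, and the difference was 0.13 (limma, standard error 0.06, adjusted p = 0.605). Ldhb, the subunit that favours using lactate, differed by -0.06 in its brightest probe set and by up to 0.13 in the others. Slc16a3, the lactate exporter MCT4, averaged 5.28 ± 0.12 in HDAC9-/- and 5.11 ± 0.14 in wild type Treg. Alone among the 43 genes, its level was under the median of all probe sets, and whether it exceeds background is not known. Pgam1, phosphoglycerate mutase, differed by 0.01.

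Upstream sequences are shown for the 4 glycolytic genes that were higher without overlap, because glycolytic genes are textbook targets of the hypoxia-inducible factor, whose response element has the core ACGTG. The letters ACGTG were searched on both strands of the 250 bases before the start in the RefSeq promoter table (GRCm38.p6). At least 1 promoter entry held them in 8 of 16 glycolysis genes (50%), 3 of 12 TCA cycle genes (25%), 1 of 14 fatty acid oxidation genes (7.14%) and 18.5% of all 27025 genes with an entry. These pathway counts cover the 42 listed genes with an entry, which are not the 42 tested. Gpi1 and Eno1 are among them, and Slc2a3, Idh3a and Acaa2 had no entry. The glycolysis genes with a match were Slc2a1, Hk2, Aldoa, Pgk1, Pgam1, Pkm, Ldha and Slc16a3. Of the 4 genes below, 3 had a match. Capitals mark ACGTG or its reverse complement CACGT, and the E-box CACGTG, which contains both, was found in Ldha and Ogdh alone among the 42 genes with an entry (6.86% of all genes). For Aldoa (3 entries) and Ldha (2 entries) the entry with the most matches is printed, the first of equals. The promoters are Tpi1 at chr6:124814159-124814408 (minus strand), Aldoa at chr7:126799255-126799504 (minus strand), Pgk1 at chrX:106186850-106187099 (plus strand) and Ldha at chr7:46845554-46845803 (plus strand), each written 5′ to 3′ on its own strand.
Tpi1: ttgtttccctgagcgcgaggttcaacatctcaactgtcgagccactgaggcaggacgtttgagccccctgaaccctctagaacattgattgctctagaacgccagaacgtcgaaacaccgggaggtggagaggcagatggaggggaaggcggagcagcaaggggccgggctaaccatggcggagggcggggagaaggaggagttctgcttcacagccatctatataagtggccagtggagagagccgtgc
Aldoa: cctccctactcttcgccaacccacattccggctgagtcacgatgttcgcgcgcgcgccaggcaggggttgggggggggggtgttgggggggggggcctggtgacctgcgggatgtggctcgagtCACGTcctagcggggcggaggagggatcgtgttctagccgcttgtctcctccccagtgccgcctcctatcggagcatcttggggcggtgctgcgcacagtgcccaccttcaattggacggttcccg
Pgk1: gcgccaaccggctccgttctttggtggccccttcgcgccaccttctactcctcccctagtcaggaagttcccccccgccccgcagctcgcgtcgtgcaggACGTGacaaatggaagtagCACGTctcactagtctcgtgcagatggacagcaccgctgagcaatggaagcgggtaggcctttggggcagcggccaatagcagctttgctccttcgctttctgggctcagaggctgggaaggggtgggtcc
Ldha: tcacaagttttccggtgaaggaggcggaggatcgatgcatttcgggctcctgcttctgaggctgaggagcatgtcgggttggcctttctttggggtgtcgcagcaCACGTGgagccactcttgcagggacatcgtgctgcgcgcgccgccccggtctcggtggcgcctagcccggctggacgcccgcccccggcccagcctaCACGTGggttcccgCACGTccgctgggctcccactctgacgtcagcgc
A match says only that these letters stand in the window. Slc2a1, Hk2, Pgam1, Pkm and Slc16a3 also had a match, and their genotypes overlapped. Tpi1, with the largest positive difference of the pathway, had none in its window. Any relation of the matches to the differences was not tested.

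The TCA cycle genes had a median of 0.05, with 9 of 13 differences positive. Without overlap, 3 were higher (23.1%, against 18.4% of the brighter genes) and 1 was lower (7.69%, near the 6.1% of the brighter genes). The median was 0.01 without HDAC9-/- replicate 1 and 0.03 with aligned array medians. None passed (limma, adjusted p of 0.557 to 0.970), and all 13 intervals lay between -0.5 and 0.5. The higher genes encode dehydrogenases of isocitrate and the hydratase of fumarate, and the lower one encodes a subunit of 2-oxoglutarate dehydrogenase.

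Pyruvate enters through the pyruvate dehydrogenase complex. Its subunit gene Pdha1 read 10.04, 9.88 and 9.84 in HDAC9-/- against 9.93, 9.87 and 9.99 in wild type samples, a difference of -0.01 with overlap. Dld, the dihydrolipoamide dehydrogenase shared by several such complexes, read 7.84, 7.71 and 7.97 in HDAC9-/- against 7.69, 7.75 and 7.46 in wild type samples. Its difference of 0.20 was the largest of the pathway, but its interval of -0.05 to 0.46 held 0 and the groups overlapped. Dld lies on chromosome 12, as Hdac9 does, with 19 protein-coding genes between them in the RefSeq gene order. Dlst, described below with a difference of -0.05, is on the same chromosome, 261 protein-coding genes from Hdac9. Dlat, the acetyltransferase subunit, differed by 0.03 in its brightest probe set and by 0.12 and 0.24 in the others, all overlapping.

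Within the cycle, Cs (citrate synthase) averaged 10.16 ± 0.10 in HDAC9-/- and 10.11 ± 0.01 in wild type Treg (SD, n = 3). One of its 2 other probe sets was higher without overlap, by 0.11. Idh3g, a regulatory subunit of the NAD-dependent isocitrate dehydrogenase, read 10.66, 10.70 and 10.60 in HDAC9-/- against 10.52, 10.52 and 10.48 in wild type samples, and its other probe set was also higher without overlap. The differences of both were 0.15 and 0.10. Idh3a, the catalytic subunit of the same enzyme, differed by 0.06 with overlap, and by 0.01 in each of its other probe sets. Idh2, the mitochondrial NADP-dependent enzyme, read 7.81, 7.73 and 7.67 in HDAC9-/- against 7.62, 7.64 and 7.61 in wild type samples, a difference of 0.12. The Idh2 groups overlapped once array medians were aligned.

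Ogdh, the first subunit of the 2-oxoglutarate dehydrogenase complex, was the TCA cycle gene with the tightest replicates. It read 9.16, 9.17 and 9.13 in HDAC9-/- against 9.27, 9.25 and 9.24 in wild type samples, a difference of -0.10 (limma, standard error 0.06, adjusted p = 0.640). Its partner Dlst differed by -0.05 in the brightest probe set and by 0.26 in a dimmer one. Fh1, fumarate hydratase, read 9.79, 9.75 and 9.69 in HDAC9-/- against 9.62, 9.59 and 9.52 in wild type samples, a difference of 0.17 (limma, unadjusted p = 0.0431, adjusted p = 0.557). The last enzymes overlapped: Suclg1 (succinyl-CoA ligase) differed by 0.05, Mdh1 (cytosolic malate dehydrogenase) by -0.03 and Mdh2 (mitochondrial malate dehydrogenase) by 0.07. The dimmest probe set of Mdh1 differed by -0.63, which rested on a value of 5.68 in wild type replicate 3 beside 3.62 to 3.73 on the other 5 arrays.

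Fatty acid oxidation had a median of 0.10, with 12 of 15 differences positive. Without overlap, 5 were higher (33.3%, against 18.4% of the brighter genes) and 0 lower (against 6.1% of the brighter genes). Without wild type replicate 2 the median was 0.06, against 0.07 for glycolysis, so the order of the pathways was not stable. No gene passed (limma, adjusted p of 0.457 to 0.944). At an unadjusted p below 0.05, 3 of 15 were higher, against 6.12% of all genes and 8.15% of the brighter genes. The 5 genes without overlap were Hadh, Acaa2, Echs1, Etfa and Etfb. The difference between the pathways was not tested.

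Entry of long acyl chains runs through Cpt1a, the rate-limiting transferase of the outer membrane, the carrier Slc25a20 and the inner transferase Cpt2. Cpt1a read 7.71, 7.37 and 8.21 in HDAC9-/- against 7.81, 7.74 and 7.58 in wild type samples. HDAC9-/- replicates 2 and 3 were the lowest and the highest of the 6 arrays, and the interval of the difference ran from -0.43 to 0.53, the widest of the 42 genes. The difference of Cpt1a was -0.17 without HDAC9-/- replicate 3 and 0.25 without HDAC9-/- replicate 2. Replicate 3 was also the highest array in both dimmer Cpt1a probe sets, which differed by 0.30 with overlap and 0.28 without. Slc25a20, the carnitine-acylcarnitine carrier, read 9.15, 8.97 and 9.27 in HDAC9-/- against 8.95, 8.97 and 8.78 in wild type samples. It had the largest positive difference of the 43 genes, 0.23 (standard error 0.10, adjusted p = 0.580), its groups overlapped by a small margin, and its second probe set differed by 0.20. With aligned array medians they did not overlap. Cpt2 averaged 6.70 ± 0.16 in HDAC9-/- and 6.84 ± 0.12 in wild type Treg (SD, n = 3), a difference of -0.14, with the opposite sign in its dim second probe set.

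Of the acyl-CoA dehydrogenases, which open each round for chains of different length, Acadvl, Acadm and Acadl overlapped. Acadvl (very long chains) averaged 8.73 ± 0.07 in HDAC9-/- and 8.62 ± 0.13 in wild type Treg. Acadm (medium chains) and Acadl (long chains) both differed by 0.05. Hadha and Hadhb form the trifunctional protein that carries long chains through the rest of the round. They differed by -0.06 and 0.02 and overlapped.

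Hadh, Echs1 and Acaa2 did not overlap. Hadh, the hydroxyacyl-CoA dehydrogenase for short and medium chains, read 10.31, 10.25 and 10.24 in HDAC9-/- against 10.08, 10.03 and 10.03 in wild type samples. The difference was 0.22 (standard error 0.06), and its adjusted p of 0.457 was the lowest of the 42 genes (limma). This brightest Hadh probe set carries the x_at ending. A second Hadh probe set, without that ending, differed by 0.12 with overlap. The dimmest, far below the median of all probe sets, differed by 0.09 without overlap. Echs1, the enoyl-CoA hydratase of short chains, read 8.34, 8.24 and 8.32 in HDAC9-/- against 8.11, 8.08 and 8.20 in wild type samples, a difference of 0.17. Acaa2, the thiolase that ends a round, read 8.71, 8.55 and 8.67 in HDAC9-/- against 8.47, 8.40 and 8.47 in wild type samples, a difference of 0.20. The Acaa2 result rested on 1 of 3 probe sets, which carries the s_at ending: the others differed by 0.04 and -0.06 and overlapped. Eci1, an isomerase for unsaturated chains, differed by 0.12 with overlap.

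Electrons from the dehydrogenases pass to the electron transfer flavoprotein, whose subunits are Etfa and Etfb, and on to its oxidoreductase Etfdh. Etfa read 9.75, 9.67 and 9.73 in HDAC9-/- against 9.51, 9.58 and 9.65 in wild type samples, a difference of 0.14. Etfb read 8.64, 8.63 and 8.66 in HDAC9-/- against 8.57, 8.54 and 8.54 in wild type samples, a difference of 0.10. Both flavoprotein subunits were thus higher on every HDAC9-/- array, while Etfdh averaged 7.48 ± 0.06 in HDAC9-/- and 7.52 ± 0.03 in wild type Treg. With aligned array medians Etfa, Etfb, Echs1 and Acaa2 overlapped and Hadh did not.

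Several genes had more than 1 probe set, which allowed a check within the gene. Of 25 such genes, 17 had differences of 1 sign in all their probe sets and 8 did not (Hk1, Pfkl, Gapdh, Ldhb, Dlst, Cpt2, Hadhb and Acaa2). The other 18 genes rest on 1 probe set each, among them Ldha, Pkm, Fh1, Ogdh, Idh2, Echs1, Etfa and Etfb.

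**Figure D3:**
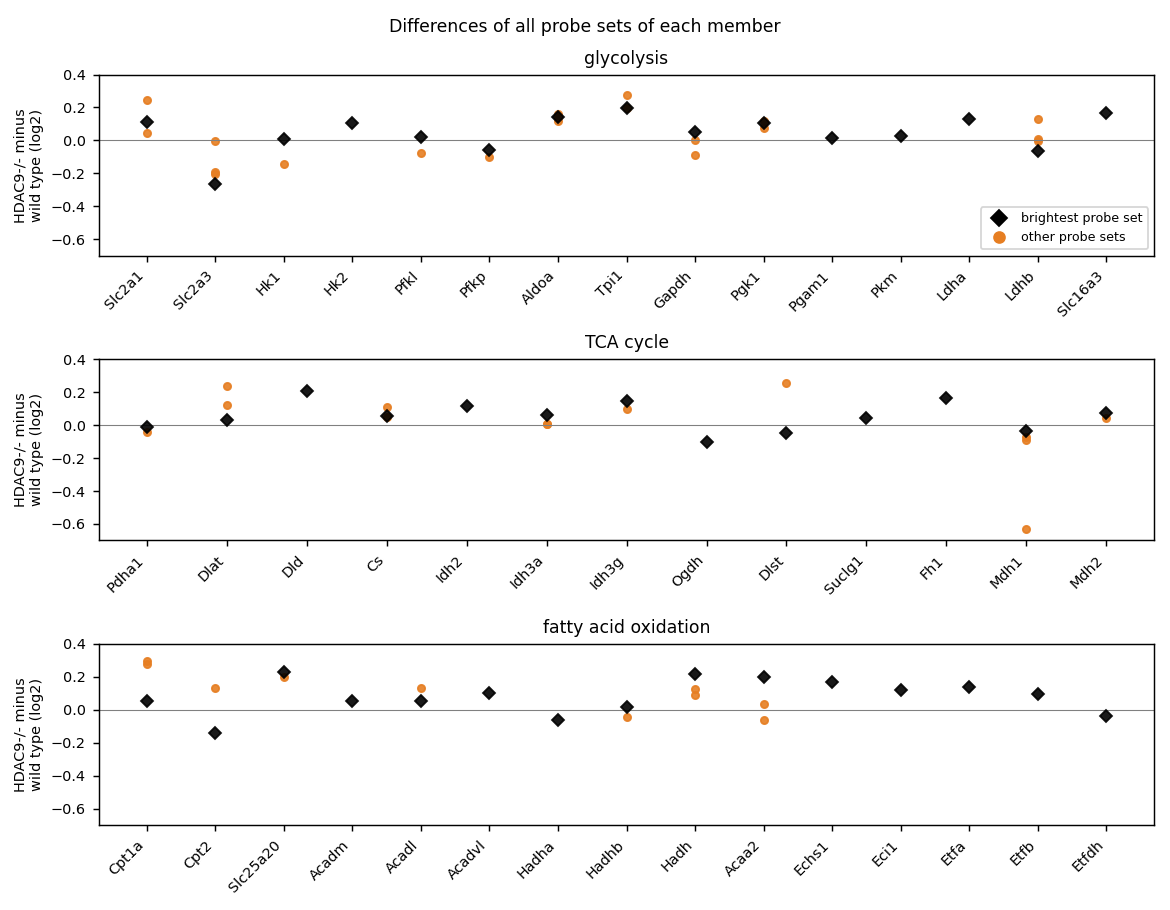
Differences (HDAC9-/- minus wild type, log2) of all 86 probe sets of the 43 genes, in 3 panels by pathway, with a black diamond for the brightest probe set of a gene and orange circles for the others. The 4 Aldoa and 3 Tpi1 probe sets all lie above 0, the Slc2a3 probe sets lie at or below 0, and the lowest point is the dim Mdh1 probe set at -0.63.

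Averaged over each pathway, the genotypes overlapped on the arrays. The score of an array is the mean over the genes of the log2 value minus the gene's mean over 6 arrays. For glycolysis it was 0.08, -0.01 and 0.0003 in HDAC9-/- replicates 1 to 3, against 0.02, -0.02 and -0.06 in wild type replicates 1 to 3. For the TCA cycle it was 0.08, -0.002 and 0.003 in HDAC9-/-, against -0.0003, -0.03 and -0.05 in wild type samples. For fatty acid oxidation it was 0.07, -0.04 and 0.09 in HDAC9-/-, against 0.001, -0.06 and -0.06 in wild type samples. HDAC9-/- replicate 1 was thus the highest array for glycolysis and the TCA cycle, and HDAC9-/- replicate 2 lay within the wild type range of each pathway.

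Markers of other cell types were measured on the same arrays, since magnetic separation leaves other cells and bulk RNA cannot tell fewer cells of a type from less RNA per cell. All 15 myeloid markers were higher in HDAC9-/- samples, and 3 were dimmer than the median probe set. Of the 15, 6 were higher without overlap (40%, against 12.5% of all genes and 18.4% of the brighter ones). The mean log2 level of the list ran from 8.18 to 8.59 in HDAC9-/- against 7.44 to 8.02 in wild type samples. The CD8 T and natural killer list had 7 of 9 markers higher, 1 of them without overlap (11.1%, against 12.5% of all genes and 18.4% of the brighter ones). It ran from 8.09 to 8.45 in HDAC9-/- against 7.96 to 8.23 in wild type samples. The B cell list had 4 of 6 markers higher and 1 lower without overlap (16.7%, against 5.7% of all genes and 6.1% of the brighter ones). It ran from 6.67 to 7.33 in HDAC9-/- against 6.89 to 7.105 in wild type samples. The plasma cell list (1 of 5 higher) ran from 7.90 to 8.07 in HDAC9-/- against 8.04 to 8.24 in wild type samples. Its markers Jchain (-0.47) and Xbp1 (-0.18) were lower without overlap (2 of 5, 40%, against 5.7% of all genes and 6.1% of the brighter ones). All 4 measured markers of red cells and platelets and all 6 of fat and muscle were dimmer than the median probe set. Neutrophils and macrophages also carry glycolytic enzymes, and the part of these cells in the differences above was not tested. The myeloid score read 0.38, 0.47 and 0.06 on HDAC9-/- arrays against -0.69, -0.10 and -0.12 on wild type arrays, each in replicate order. It did not overlap between the genotypes, and its relation to the pathway scores was not tested. The Treg label was checked against its markers. Those brighter than the median probe set in both genotypes were Cd3d, Cd3e, Cd4, Il2ra, Foxp3 and Ctla4, while Ikzf2 lay below it. Il2ra, the gene of CD25, read 9.42, 9.34 and 9.42 in HDAC9-/- against 9.45, 9.46 and 9.54 in wild type samples. Its difference of -0.08 (limma adjusted p = 0.712) was the only one of the 7 markers without overlap (14.3%, against 6.1% of the brighter genes lower).

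**Figure D4:**
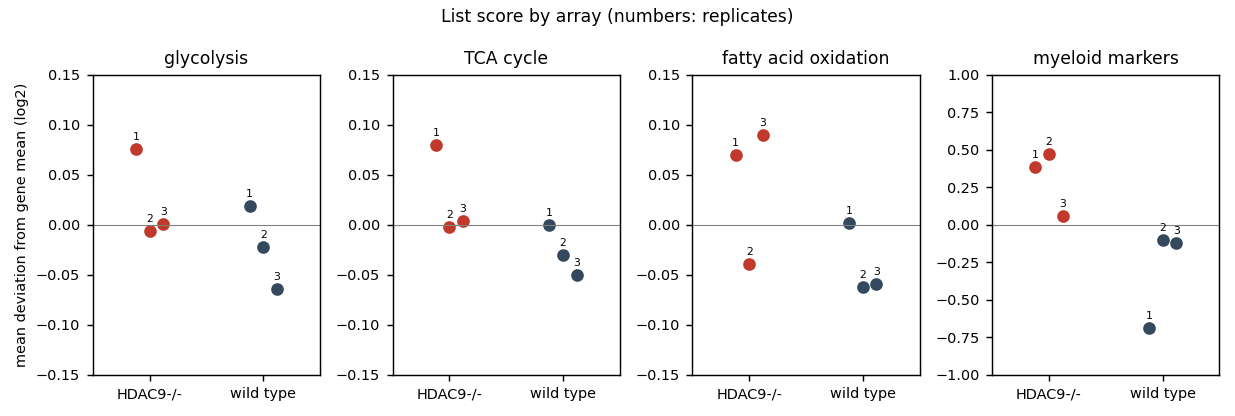
Score of each array for the 3 pathways and for the myeloid markers (mean deviation of the log2 values from each gene's mean over 6 arrays), HDAC9-/- in red and wild type in dark blue, with replicate numbers beside the points. The pathway panels share 1 axis range and the myeloid panel has a wider one; the pathway scores overlap between the genotypes and the myeloid scores do not.

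Other genes of the same pathways and of related steps also had no call. Of 15 further glycolysis genes measured, 12 had a positive difference, 2 were higher without overlap (13.3%, against 12.5% of all genes and 18.4% of the brighter ones) and 0 lower, and the median was 0.08. That share was near the background. Eno2, an enolase best known from neurons, read 5.30, 5.16 and 5.26 in HDAC9-/- against 4.75, 4.90 and 4.68 in wild type samples. Its difference of 0.46 (standard error 0.08, limma adjusted p = 0.339) was the largest of the list, at a level under the array median. Pgm1, a phosphoglucomutase that links glycogen and glycolysis, averaged 7.79 ± 0.09 in HDAC9-/- and 7.50 ± 0.09 in wild type Treg without overlap. Aldoc, a brain aldolase, differed by 0.28 with overlap.

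Of 20 further genes of pyruvate handling and the TCA cycle, 16 had a positive difference, 4 were higher without overlap (20%, near the 18.4% of the brighter genes) and 0 lower, and none passed. The 4 were Sdhb and Sdhd, subunits of succinate dehydrogenase (0.12 and 0.14), Mpc1, a subunit of the mitochondrial pyruvate carrier (0.14), and Pdk1. Pdk1, a kinase that inhibits pyruvate dehydrogenase, read 9.22, 9.21 and 9.15 in HDAC9-/- against 9.09, 9.03 and 9.06 in wild type samples, a difference of 0.13. Of 22 further genes of fatty acid oxidation and related steps, among them Acaca, Acacb and Acad8, 15 had a positive difference. Without overlap, 6 of the 22, including Acad8, were higher (27.3%, against 12.5% of all genes and 18.4% of the brighter ones) and 0 lower. Fabp5, a fatty acid binding protein, read 10.19, 10.05 and 10.28 in HDAC9-/- against 9.63, 9.93 and 9.80 in wild type samples, a difference of 0.39 (standard error 0.10, adjusted p = 0.441). Slc22a5, the carnitine importer OCTN2, and Acads, the dehydrogenase of short chains, differed by 0.17 and 0.15 without overlap.

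The pentose phosphate branch, which makes NADPH and ribose from glucose, had 5 of 6 positive differences (83.3%, against 61.8% of the brighter genes). Pgd (0.17) and Tkt (0.16) were higher without overlap (2 of 6 genes, 33.3%, against 18.4% of the brighter genes), and Pgls (0.14) overlapped. Among 21 measured regulators of metabolism, 12 had a positive difference (57.1%, against 61.8% of the brighter genes), 4 were higher without overlap (19.0%, against 18.4%) and 0 lower, and the median was 0.03. Both shares were near the background. Egln3, the hydroxylase PHD3 that marks hypoxia-inducible factor for degradation, read 7.15, 7.48 and 7.66 in HDAC9-/- against 6.31, 6.48 and 6.37 in wild type samples and had the largest difference (1.05, adjusted p = 0.240). Foxo1, a transcription factor of resting T cells, differed by 0.16 without overlap, and Pparg, a receptor for fatty acid ligands, by 0.21 with overlap at a level below the median of all probe sets.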

How the data were processed

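RNA of 3 HDAC9-/- and 3 wild type CD4+CD25+ Treg samples was measured on 1 Affymetrix array each. The deposited log2 values, 1 for each probe set on each array, are RMA output per the submitters' processing notes. The sources used here name no RMA version or settings. RMA corrects background, normalizes arrays and summarises probes, and it understates changes of dim genes. Values ran from 2.42 to 14.32.

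Of 22690 probe sets, the 64 controls were left out of the test and 22626 tested, without a brightness filter, with limma 3.58.1 in R 4.3.3 (lmFit, eBayes, genotype alone, Benjamini-Hochberg, adjusted p below 0.05). Symbols came from the platform annotation. Of the tested probe sets 20380 carry 1 symbol, 691 several and 1555 none. The code was tested on simulated data. Named genes follow a rule: the 3 smallest p-values and the largest difference in each direction per pathway, entry or committed steps, probe sets that disagree in sign with an unadjusted p below 0.05, and the 3 smallest p-values per further list. Genes without overlap and those named for their role were added after their values were seen. The genes, lists and tests were chosen with earlier results of these data known.

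Alternatives were quantile normalization again, aligned array medians, a brightness filter, a trended and robust prior, weights per array, a block for the replicate number, each array left out, probe sets averaged per gene and an adjusted p below 0.10. Deviations of samples with the same replicate number correlated at 0.036, 0.099 and -0.249, so the numbers were not taken to pair samples.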

Additional observations from a re-analysis of the deposited data

How the results depend on the processing

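No gene of the 3 pathways passed under any alternative listed in the processing, including the threshold of 0.10 and each left-out array; the lowest adjusted p of a named gene was 0.157. Over all probe sets 3 passed as deposited, 15 with the trended and robust prior, 6 with array weights, 5 at an adjusted p below 0.10, 0 with the replicate number as a block and 0 to 6 without 1 array (6 without wild type replicate 3). The replicate block left the 3 pathway medians at 0.0486, 0.0524 and 0.0960 and changed no call of a pathway gene.

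Without 1 array the median difference ran from 0.0237 to 0.0958 for glycolysis (highest without wild type replicate 1), from 0.0138 to 0.0782 for the TCA cycle (lowest without HDAC9-/- replicate 1) and from 0.0641 to 0.106 for fatty acid oxidation. Under the other alternatives each median moved by less than the spread between arrays. The counts of genes without overlap were recomputed under settings chosen after seeing the data. With aligned medians they were 6 higher (14.0%, against 12.6% of the brighter genes). With quantile normalization again they were 11 higher (25.6%, against 16.0% of the brighter genes). With probe sets averaged per gene they were 12 higher (27.9%, against 11.3% of all genes). Without 1 array, 13 to 17 were higher (30.2% to 39.5%, against 22.2% to 27.7% of the brighter genes). The lower ones were then 2 to 4 (4.65% to 9.30%, against 7.35% to 14.6%), with 4 without HDAC9-/- replicate 1. With all arrays the shares of the brighter genes were 18.4% and 6.10%, so leaving out an array raised the background too.

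Of 27 named genes, 18 kept 1 sign under all alternatives and 9 did not. Hk1 differed by -0.0153 with aligned medians, -0.0111 with array weights and -0.0657 as the mean of its probe sets. Pfkl differed by -0.0018 with quantile normalization again, -0.0031 with aligned medians, -0.0390 with array weights and -0.0259 as the mean of its probe sets. Cpt1a differed by -0.0977 with array weights, and Gapdh by -0.0113 as the mean of its probe sets. Without 1 array, sign changes gave ranges of -0.0198 to 0.0467 for Hk1, -0.0471 to 0.226 for Hk2, -0.0597 to 0.0963 for Pfkl and -0.0709 to 0.0298 for Pdha1. They were -0.0067 to 0.0857 for Cs, -0.0060 to 0.143 for Idh3a, -0.172 to 0.249 for Cpt1a and -0.0056 to 0.0920 for Acadm. The causes were not tested. The brightness filter gave no value for Slc16a3. No depth applies to arrays, and dim probe sets near background limit what can be seen.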
